A study of Mus musculus with 29 samples.

Results

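The sterol genes described here are 29 genes of cholesterol synthesis, its regulation and cholesterol export, out of 30818 in the expression table. They were listed by name, but with earlier results of these data known. They comprise 19 synthesis enzymes from Aacs to Dhcr7, the regulators Srebf2, Scap, Insig1 and Insig2, the carrier Stard4, the oxysterol receptors Nr1h2 and Nr1h3, and their target genes Abca1, Abcg1 and Mylip. All 29 passed the filter on low values.

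RNA came from mammary fat of wild-type C57BL/6N mice (sex and age: not given in the sources used here). Control mice (5 libraries) ate the control diet D12450J. All others were first made obese on D12492, a 60% high fat diet, and those that stayed obese form the group Obese (5). The rest slimmed on 1 of 4 diets: unrestricted low-fat food (LFD, 5), low-fat food with 30% fewer calories (LFCR, 5), Mediterranean-style food with 30% fewer calories (MCR, 4), or intermittent calorie restriction of a degree the labels do not state (ICR, 5). Every mouse, lean controls included, received E0771 mouse mammary cancer cells in fat pad 4 at 25 weeks after the diets were first assigned, and the tissue sequenced was pad 9 on the opposite side, labelled as normal. The titles begin with "tumor", and the cell type label names the cancer cells, while the tissue label and the design text name normal tissue. The 6 adipocyte markers looked up, among them Adipoq and Plin1, had means from 14.1 (Control 1) to 16.6 (LFCR 1) on the log2 scale. These values do not decide between the labels.

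Cholesterol is built from acetyl-CoA through mevalonate, isoprenoid diphosphates, squalene and lanosterol. When sterols are scarce, the escort protein SCAP carries the transcription factor SREBP2 out of the endoplasmic reticulum and SREBP2 switches on the synthesis genes, whereas INSIG proteins hold the complex back when sterols are plentiful. When oxysterols build up, the nuclear receptors LXRα (Nr1h3) and LXRβ (Nr1h2) switch on export through ABCA1 and ABCG1 and, through Mylip, the removal of a lipoprotein receptor. Fat cells keep a large store of unesterified cholesterol in and around their lipid droplets.

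Upstream stretches of 3 genes are shown because synthesis enzymes are classical SREBP2 targets and because Hmgcs1 moved against its neighbours in the pathway. Each is the 250 bases before the RefSeq transcription start (build GRCm38.p6, plus strand), with the sequence credited to RefSeq. Capitals mark matches to the sterol regulatory element letters TCACNCCAC and to the CCAAT box, on either strand.
Hmgcs1, chr13:119690101-119690350: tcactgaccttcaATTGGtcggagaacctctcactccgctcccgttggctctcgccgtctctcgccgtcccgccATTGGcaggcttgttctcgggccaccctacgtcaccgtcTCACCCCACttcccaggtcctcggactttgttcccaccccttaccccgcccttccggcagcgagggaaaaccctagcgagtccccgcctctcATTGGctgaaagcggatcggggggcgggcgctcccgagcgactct
Mvk, chr5:114444019-114444268: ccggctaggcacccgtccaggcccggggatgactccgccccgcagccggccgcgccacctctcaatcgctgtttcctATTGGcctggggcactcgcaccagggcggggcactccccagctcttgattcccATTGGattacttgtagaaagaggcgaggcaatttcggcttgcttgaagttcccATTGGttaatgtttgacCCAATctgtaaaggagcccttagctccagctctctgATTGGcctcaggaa
Nsdhl, chrX:72918271-72918520: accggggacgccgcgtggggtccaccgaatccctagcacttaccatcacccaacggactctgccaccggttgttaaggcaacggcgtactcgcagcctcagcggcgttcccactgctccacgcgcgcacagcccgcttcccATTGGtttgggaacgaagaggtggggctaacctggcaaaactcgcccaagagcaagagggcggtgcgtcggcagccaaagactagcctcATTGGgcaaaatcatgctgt
Promoter windows were found for 24 of the 29 genes, and Fdps, Fdft1, Sqle, Stard4 and Abcg1 had none. TCACNCCAC occurred in 1 of the 24, at 137 bases before the start of Hmgcs1, against 1.25% of the 12676 tested genes that had a window. CCAAT occurred in 18 of the 24 (75%) against 39.6% of those genes, with 3 matches in Hmgcs1, 5 in Mvk and 2 in Nsdhl. The GC box GGGCGG occurred in 20 of the 24 (83.3%) against 58.7%. A pattern of paired half-site cores, meant for the LXR element (DR4), occurred in 0 of the 24 and in 0.0316% of tested genes. The cores in that pattern lay closer together than in a DR4. A DR4 would therefore not match it, and its counts do not bear on LXR elements. These matches describe letters in a short window and are not evidence of binding.

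Values are size-factor-normalized read counts, recovered from the deposited variance-stabilised log2 table, and differences are on that log2 scale with the standard error (SE) of the limma fit. Depth ran from 16403903 to 49026986 reads per library, and the 5 libraries of sequencing lane 4 were the shallowest (at most 18212783). Libraries were taken as 1 per mouse from their separate numbers, and the p-values can speak only of the variation among them. The mean of 9 B cell markers lay between 5.61 and 6.73 (log2) in 8 libraries and at 10.3 or more in the other 21. The 8 comprised LFD 1, 2 Obese libraries (1 and 5), 2 LFCR libraries (1 and 3) and 3 of the 4 MCR libraries, so that MCR 2 was the only MCR library with B cell signal and also the shallowest library of all. In bulk tissue, fewer cells of a type and less RNA per cell cannot be told apart.

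Per kilobase of annotated exon (GENCODE M21, mean over the 29 libraries), levels spanned from 2246 normalized counts for Insig1 to 49.0 for Tm7sf2, a sterol reductase. Abca1 (1315), Aacs (1111) and Mylip (1054) followed Insig1, and the highest of the later enzymes was Sc5d (792). The 2 LXR genes were close together on this scale, at 697 for Nr1h3 and 656 for Nr1h2. Variation between libraries was widest for Aacs, from 767 normalized counts in LFD 1 to 13941 in LFCR 2, an 18.2-fold range, and for Insig1, with an 11.9-fold range. It was narrowest for Nr1h2 and Scap, with 1.35-fold and 1.44-fold ranges.

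Sterol enzymes such as Aacs, Fdft1, Nsdhl and Tm7sf2 were higher on both low-fat and Mediterranean-style restriction than in obesity. In LFCR against Obese, 11 of the 29 genes were higher and 3 lower (limma, adjusted p under 0.05), against 11.9% higher, 9.42% lower and 21.4% in all among 19387 genes. Positive differences were found for 17 of the 19 enzymes and for 8653 of the 19387 genes. The median log2 difference of the 29 genes was 0.37, beside -0.04 for all genes. In MCR 9 were higher and 1 lower, against 6.66% and 5.69% of all genes (12.4% in all), with a median of 0.42 beside -0.04. ICR gave 2 higher and 2 lower, against 3.99% and 5.23% (9.21% in all), and a median of -0.04 beside 0.0046, and LFD gave 0 higher and 1 lower, against 2.70% and 3.28% (5.98% in all), with a median of -0.0062 beside -0.0025. Obesity itself went with 2 higher and 1 lower against 9.44% and 3.44% of all genes (12.9% in all), and a median of 0.01 beside -0.03. These comparisons share the Obese libraries.

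**Figure D1:**
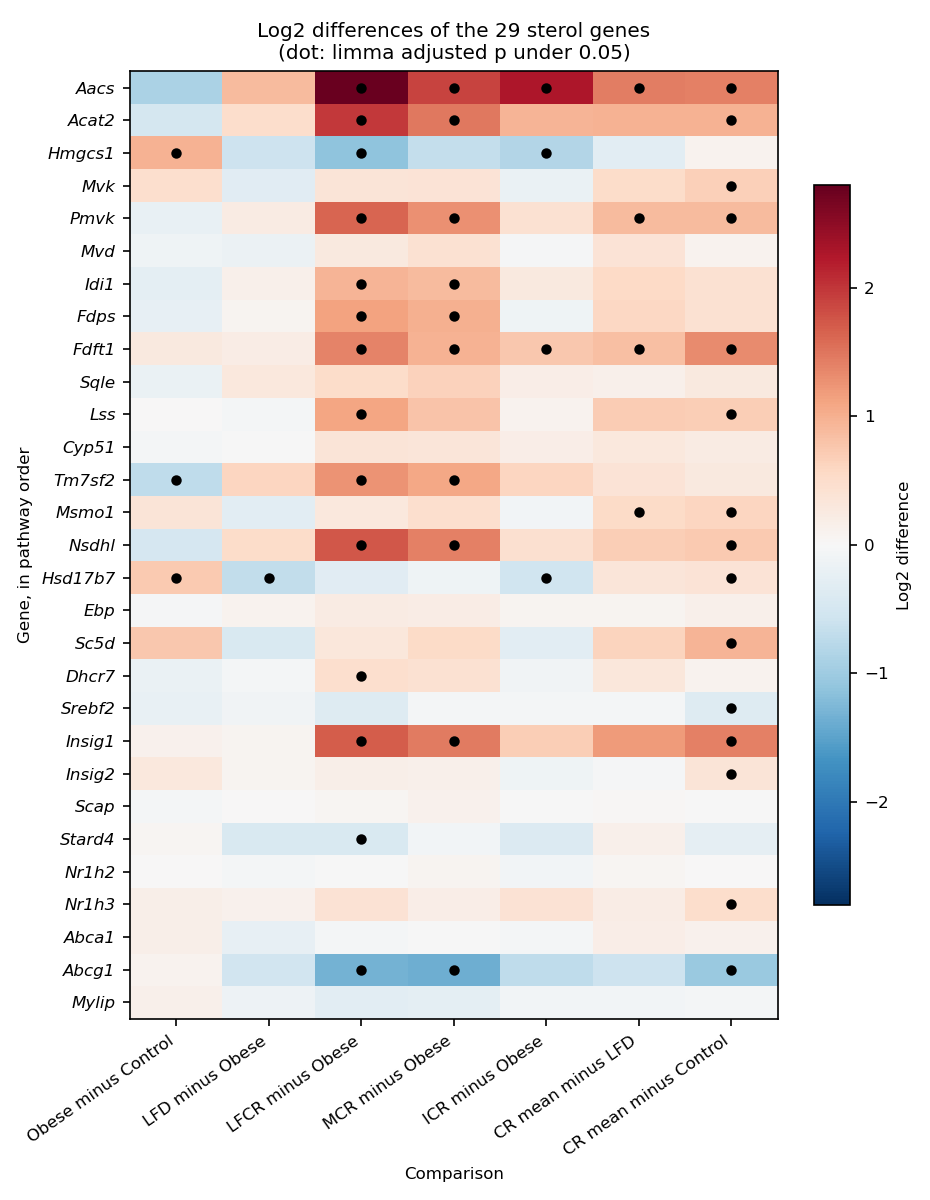
Log2 differences of the 29 sterol genes (rows, in pathway order) in 7 comparisons (columns). Red is higher and blue lower in the first-named group, and dots mark limma adjusted p under 0.05. The LFCR and MCR columns hold 14 and 10 dots, the LFD column 1.

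Within lanes, all 14 LFCR calls had the pooled direction in each of 4 lanes and all 10 MCR calls in each of 3, though these genes were called on the same libraries. The ICR calls had it for 3 of 4 in lane 3 and 4 of 4 in the other 3 lanes, the Obese against Control calls for 2 of 3 in lane 4 and 3 of 3 in the rest, and the LFD call in 3 of 4 lanes but not in lane 5. Scaling by total reads in place of the authors' size factors lowered the median of all genes by 0.25 in LFCR. The sterol calls there became 10 higher and 7 lower, and calls over all genes went from 4142 to 6504. Without the 8 libraries low in B cell markers, 16 sterol genes were called in LFCR, beside 3600 of all 19387 genes (from 4142). MCR 2 alone then represented its group, with a median sterol difference of 0.11. The MCR count was 3 without MCR 1, 4 without MCR 3 and 18 without MCR 2. Calls over all genes were not counted for these 3 fits. In a fit of only the groups compared the MCR calls of Fdft1, Idi1 and Insig1 ended, and with luminal epithelium markers as a covariate 6 MCR calls stood. The ICR count of 4 fell to 1 with no filter, with lane as a term, with luminal epithelium markers as a covariate, or without ICR 1, 2 or 4 or Obese 2 or 3, and to 2 without Obese 1 or 5.

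At the entry to the pathway, Aacs rose under all 3 restricted diets and Acat2 in LFCR and MCR, while Hmgcs1 fell in LFCR and ICR. Aacs encodes acetoacetyl-CoA synthetase, which lets the ketone body acetoacetate feed lipid synthesis (chr5:125475814-125517410, GRCm38). The Obese libraries held 1139, 864, 1214, 1409.5 and 1278 normalized counts and the LFCR libraries 6237, 13941, 6130.3, 10538 and 6317. These groups lay far apart, with every LFCR library more than 4 times the highest Obese library (2.77 ± 0.45 SE, adjusted p = 0.000101). In MCR the values were 8373, 3079.6, 6199 and 2276 (1.88 ± 0.48, adjusted p = 0.0101), and in ICR 7061, 6109.6, 5309.9, 5428 and 4681 (2.25 ± 0.45, adjusted p = 0.00221). Neither group overlapped Obese, and ICR was the tightest of the restricted groups. LFD ranged widely at 767, 2059, 1697, 4507 and 3848 (0.88, adjusted p = 0.278), as did Control at 1206, 909.8, 2042, 5660.4 and 3909, where libraries 4 and 5 stood above the other 3. The MCR call ended without MCR 1 (adjusted p = 0.0641).

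Acat2, the cytosolic thiolase that joins acetyl-CoA units, also rose in LFCR and MCR. It held 1017, 693, 1060.3, 790.3 and 1073 normalized counts in Obese, 3298, 6020.4, 3026, 4541 and 2482 in LFCR (1.98 ± 0.37, adjusted p = 0.000446) and 4503, 1642, 3736 and 1629 in MCR (1.48 ± 0.40, adjusted p = 0.0151). Neither restricted group overlapped Obese. The MCR call ended without MCR 1 or MCR 3 (adjusted p = 0.0851 and 0.0698). In ICR, Acat2 had a mean of 1815 ± 417 (SD, n = 5), a difference of 0.94 ± 0.37 with an interval of 0.17 to 1.71 and an adjusted p of 0.118, although all 5 libraries (1757, 1971, 2445, 1486 and 1413) lay above the Obese range.

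Hmgcs1, the cytosolic synthase that makes HMG-CoA (chr13:119690379-119708260) and the gene with the TCACNCCAC match above, ran the other way. Control libraries held 2837, 2636, 7068, 2092 and 3739 normalized counts and Obese libraries 10865, 5302, 6364, 4112 and 8234 (0.98 ± 0.26, adjusted p = 0.0155). The groups overlapped through Control 3, and the call ended without Obese 1 or Obese 5 (adjusted p = 0.071 and 0.0544), which were the 2 Obese libraries low in B cell markers and the 2 highest. The call also ended without the 8 libraries (0.63, adjusted p = 0.199) and in a fit of only these groups (adjusted p = 0.114). LFCR libraries held 3777, 2618, 3508, 2817 and 2460.3, all under the lowest Obese library (-1.13 ± 0.26, adjusted p = 0.00264). The fall in ICR, to 3505, 4253, 3750.4, 3667 and 3468, passed narrowly (-0.82 ± 0.26, adjusted p = 0.047) and did not pass without the 8 libraries (-0.47, adjusted p = 0.207) or without any single ICR or Obese library but Obese 4. MCR, at 5357, 2516, 3945 and 5684, gave -0.66 ± 0.28 (adjusted p = 0.125).

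**Figure D2:**
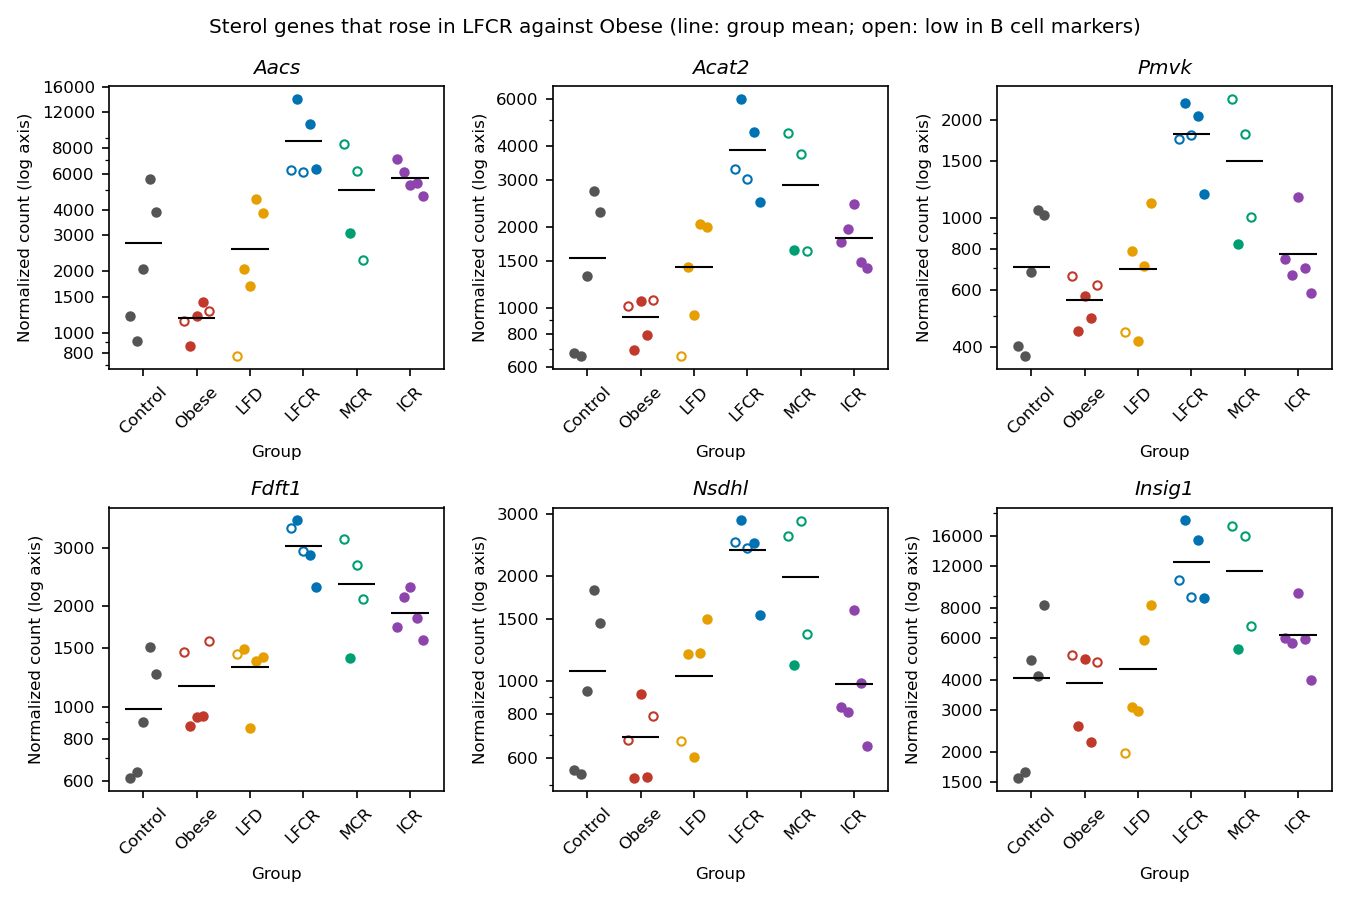
Normalized counts (log axes) of 6 sterol genes that rose in LFCR, by library and group. Open circles are the 8 libraries low in B cell markers and lines are group means. LFCR libraries lie above all Obese libraries for each gene, and all ICR libraries do so for Aacs, Acat2 and Fdft1.

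In the mevalonate steps, Pmvk, Idi1 and Fdps rose in LFCR and MCR, and Mvk and Mvd did not pass against Obese. Pmvk, phosphomevalonate kinase, held 665, 449, 575, 492 and 622 normalized counts in Obese, 1744, 2258, 1803, 2063 and 1183 in LFCR (1.63 ± 0.30, adjusted p = 0.00039) and 2326, 832, 1817 and 1008 in MCR (1.27 ± 0.32, adjusted p = 0.0102). Both restricted groups lay above every Obese library, and the MCR call ended without MCR 1 or MCR 3 (adjusted p = 0.0694 and 0.051). In ICR the values were 747, 667, 1162, 701 and 586, with ICR 3 apart from the other 4 (0.42 ± 0.30, adjusted p = 0.442). Idi1, the isopentenyl diphosphate isomerase, had means of 930.3 ± 197 in Obese, 1823 ± 398 in LFCR (SD, n = 5 each; 0.95 ± 0.24, adjusted p = 0.00519) and 1829 ± 771 in MCR (n = 4; 0.90 ± 0.25, adjusted p = 0.0201). MCR overlapped Obese for this gene, and its call ended without MCR 1, MCR 3 or Obese 2 (adjusted p up to 0.13). Fdps, which makes farnesyl diphosphate, went from 637 ± 124 to 1428 ± 371 in LFCR (1.12 ± 0.30, adjusted p = 0.00899) and 1352 ± 482 in MCR (1.01 ± 0.32, adjusted p = 0.0396). For ICR the Fdps difference was -0.13 with an interval of -0.75 to 0.49. Mvk, mevalonate kinase, differed from Obese by 0.37 in LFCR and 0.38 in MCR (adjusted p = 0.223 and 0.284), and Mvd, the decarboxylase, by 0.27 and 0.42 (adjusted p = 0.365 and 0.205).

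Among the squalene steps, Fdft1 passed under all 3 restricted diets. This gene encodes squalene synthase, the first enzyme committed to sterols (chr14:63145150-63179578). Its normalized counts were 1456, 877, 930.4, 935 and 1568 in Obese and 3432, 3618, 2936, 2849.8 and 2283 in LFCR, without overlap (1.40 ± 0.24, adjusted p = 0.000162). The MCR values were 3175, 1397, 2661 and 2108 (0.98 ± 0.25, adjusted p = 0.0108) and the ICR values 1734, 2127, 2276, 1848 and 1578 (0.75 ± 0.24, adjusted p = 0.0458). Here MCR 2 alone of the restricted libraries fell within the Obese range. The MCR call ended without MCR 1 (adjusted p = 0.068), and the ICR call without any of ICR 1 to 4 or Obese 2, 3 or 4 (adjusted p up to 0.12). Lss, lanosterol synthase, rose in LFCR from 1088 ± 221 to 2371 ± 506 (1.10 ± 0.27, adjusted p = 0.00392), and in MCR gave 0.81 ± 0.28 (adjusted p = 0.0613). Sqle, squalene epoxidase, which lies between them, did not pass in LFCR (0.52, interval 0.06 to 0.98, adjusted p = 0.101) or in MCR (0.65, adjusted p = 0.0722).

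Of the 8 steps after lanosterol, Tm7sf2 and Nsdhl rose in both LFCR and MCR. Nsdhl, a sterol dehydrogenase of the demethylation complex (chrX:72918557-72958514), held 677, 526, 913, 529.6 and 792 normalized counts in Obese, 2503, 2885, 2407, 2485 and 1546 in LFCR (1.75 ± 0.33, adjusted p = 0.000432) and 2602, 1106, 2871 and 1357 in MCR (1.41 ± 0.35, adjusted p = 0.0087). No restricted library of these diets fell within the Obese range, and the MCR call ended without MCR 3 (adjusted p = 0.0523). Tm7sf2, at 171, 149, 187, 300.1 and 239.6 in Control and 99.5, 119, 109, 128 and 114 in Obese, fell with obesity (-0.72 ± 0.23, adjusted p = 0.0402). Removing Control 1, 4 or 5, or Obese 1, 2, 3 or 5, ended that call (adjusted p up to 0.107). It also ended with no filter (adjusted p = 0.0557), with luminal markers as a covariate (0.13) and without the 8 libraries low in B cell markers (0.099). Restriction brought Tm7sf2 to 187, 437, 281, 374 and 314 in LFCR (1.26 ± 0.23, adjusted p = 0.000337) and 303, 223, 369.8 and 213 in MCR (1.09 ± 0.25, adjusted p = 0.00467), all above the highest Obese library.

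Hsd17b7, a sterol ketoreductase, rose with obesity and was lower on LFD and ICR. It held 255, 383, 332, 349 and 303 normalized counts in Control and 780.4, 470.1, 542, 434 and 582 in Obese, without overlap (0.73 ± 0.18, adjusted p = 0.00966). The LFD libraries held 342, 488, 300.0, 315 and 262 (-0.68 ± 0.18, adjusted p = 0.026) and the ICR libraries 395, 387, 443, 282 and 326 (-0.57 ± 0.18, adjusted p = 0.047), and each of these groups overlapped Obese through 1 library. With luminal markers as a covariate none of the 3 calls passed (adjusted p = 0.0668 with obesity, 0.622 in LFD and 0.135 in ICR), and the mean of those markers was 11.12 ± 0.62 in Control, 10.25 ± 0.32 in Obese, 11.51 ± 0.62 in LFD and 10.82 ± 0.21 in ICR. The LFD and ICR calls ended in a fit of only these groups (adjusted p = 0.0901 and 0.0645), and the ICR call with lane or no filter. None passed without the 8 libraries either (adjusted p = 0.0993, 0.13 and 0.14). The LFD call also ended without Obese 1 or 5 or LFD 3, 4 or 5 (adjusted p up to 0.0915), and the ICR call on removing any library but ICR 3 or Obese 4 (up to 0.152). Dhcr7, which makes cholesterol in the last step, was higher in LFCR (0.48 ± 0.17, adjusted p = 0.0451). Cyp51, the lanosterol demethylase, Msmo1, a methylsterol oxidase, Ebp, a sterol isomerase, and Sc5d, a desaturase, did not pass against Obese under any diet. Their LFCR differences were 0.37, 0.30, 0.23 and 0.32.

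**Figure D3:**
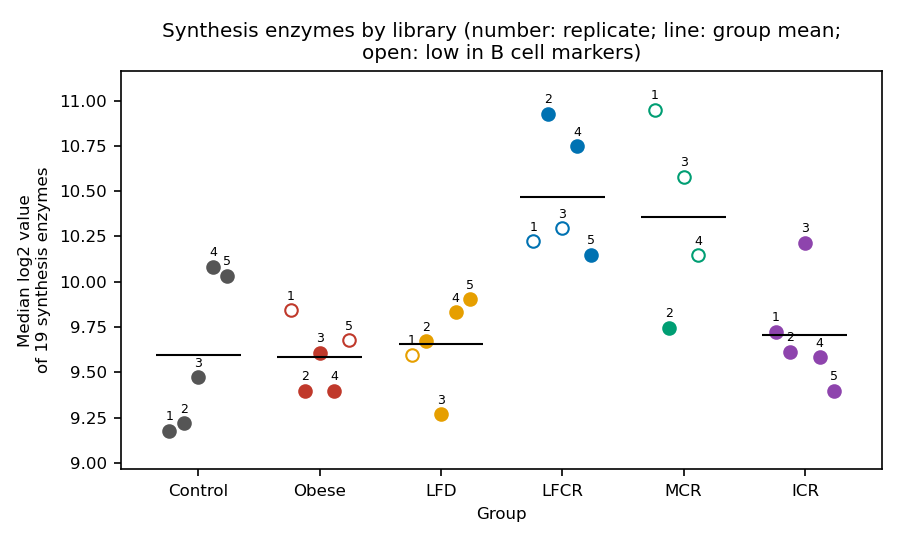
Median deposited log2 value of the 19 synthesis enzymes in each library, by group, with replicate numbers, group means as lines and the 8 libraries low in B cell markers as open circles. The LFCR mean is 10.5 and the MCR mean 10.4, against 9.59 in Obese, 9.65 in LFD and 9.71 in ICR, and ICR 3 lies above the other ICR libraries.

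Some libraries moved as a block across the enzymes, though in LFD no library was highest for more than 6 or lowest for more than 8 of the 19. The median log2 value of the 19 enzymes was 10.2 in ICR 3 and 9.40 to 9.72 in the other ICR libraries, and ICR 3 was the highest ICR library for 15 of the 19. MCR 1 was the highest MCR library for 15, and MCR 2 the lowest for 13 with a median of 9.75 against 10.1 to 10.9 in the rest. In Control, libraries 4 and 5 had medians of 10.1 and 10.0 and the other 3 lay between 9.18 and 9.47. Obese was the tightest group, from 9.40 to 9.84, with Obese 2 the lowest of its group for 13 enzymes. Skeletal muscle markers (4 genes) had a mean log2 value of 12.68 in Obese 2 and 5.49 to 6.39 in the other Obese libraries. In LFCR 5, the lowest of its group for 11 enzymes, that mean was 11.07, against 5.15 to 7.38 in the other LFCR libraries. The mean was also high in LFD 5 (11.998), ICR 4 (10.08) and MCR 3 (9.69), which were lowest for 3, 6 and 0 enzymes. It was raised in LFD 1 (9.14) and LFD 3 (8.60), which were lowest for 7 and 8. In LFD 2 and LFD 4 it was 5.97 and 5.42, and these were lowest for 1 and 0. Adipocyte marker means were 14.10 and 14.13 in Control 1 and 2 and 15.11 to 15.51 in Control 3 to 5. Obese 2 (14.67), MCR 2 (15.15), LFCR 5 (15.85) and LFD 1 (15.36) had the lowest adipocyte mean of their groups. So did ICR 3 (15.49), which had the highest enzyme median of its group. The part of muscle or adipocyte content in the enzyme values was not tested.

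Of the regulators, Insig1 rose and Srebf2 and Scap did not pass against Obese. Insig1, an SREBP target whose protein restrains SREBP processing (chr5:28071363-28078662), held 5077, 2579.9, 4884, 2196 and 4788 normalized counts in Obese and 10523, 18654, 8925, 15387 and 8829 in LFCR (1.69 ± 0.44, adjusted p = 0.00686). The MCR libraries held 17729, 5404, 16042 and 6754 (1.45 ± 0.47, adjusted p = 0.0413). Both groups lay above all Obese libraries, and MCR 1 and 3 stood far above MCR 2 and 4. The MCR call ended without MCR 1, MCR 3, Obese 2 or Obese 4, when other groups were left out of the fit, and with voom, lane, luminal markers or no filter (adjusted p from 0.0537 to 0.173). ICR gave 6007, 5728, 9306, 5933 and 4023 (0.70 ± 0.44, adjusted p = 0.365), with ICR 3 again the highest. Srebf2, the gene of SREBP2 itself, had means of 3300.0 ± 604 in Obese and 2627 ± 716 in LFCR (SD, n = 5 each; -0.35 ± 0.17, adjusted p = 0.156), and in MCR and ICR it differed by -0.06 and -0.06. LFCR 1, at 1624, was its lowest library. Scaled by total reads, the LFCR difference was -0.62 (adjusted p = 0.0385). Scap differed from Obese by 0.05 in LFCR (interval -0.12 to 0.22) and 0.11 in MCR, and Insig2 by 0.16 and 0.14.

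Abcg1, which exports cholesterol to lipoprotein particles (chr17:31057675-31117988), fell in LFCR and MCR, whereas Abca1 did not pass. Normalized counts of Abcg1 were 3647, 5154, 2907, 2396 and 2897 in Control and 3839.8, 3903, 3644, 3199 and 3056 in Obese (0.10, adjusted p = 0.818). They were 1080.2, 1572, 907, 1861 and 1807 in LFCR (-1.32 ± 0.26, adjusted p = 0.000567) and 1064, 2889.8, 1050.4 and 1027 in MCR (-1.36 ± 0.27, adjusted p = 0.0019). Every LFCR and MCR library lay under the lowest Obese library, and MCR 2, the MCR library with B cell signal, was well above the other 3. Without the 8 libraries the LFCR difference was -1.02 (adjusted p = 0.0105) and the MCR difference, resting on MCR 2, -0.30 (adjusted p = 0.788). ICR gave -0.71 (adjusted p = 0.0833) and LFD -0.55 (adjusted p = 0.225).

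Macrophages, which export cholesterol through ABCG1, had lower marker signal in the same diets. Of 8 macrophage markers, 6 were lower in LFCR, 5 in MCR, 4 in ICR and 2 in LFD against Obese, and 3 were higher in Obese against Control. Among all genes 9.42%, 5.69%, 5.23% and 3.28% were lower on these diets, and 9.44% higher in Obese. The macrophage markers had a mean log2 value of 11.67 ± 0.39 in Obese, 10.36 ± 0.44 in LFCR and 10.57 ± 0.30 in MCR. Their summed counts ran from 33662 to 45036 in Obese and from 11856 to 28084 in LFCR, and none was at 0 throughout a group. The part of macrophage content in the Abcg1 result was not tested. The 9 B cell markers, none of which passed in these comparisons, had a mean of 9.89 ± 3.41 in Obese, 9.35 ± 2.69 in LFCR and 7.63 ± 3.26 in MCR. Of 6 adipocyte markers, 4 were higher in LFCR and 1 in each of MCR and ICR, against 11.9%, 6.66% and 3.99% of all genes. The adipocyte marker means were 14.84 ± 0.68 in Control, 15.17 ± 0.54 in Obese and 15.56 ± 0.17 in LFD. They were 16.18 ± 0.29 in LFCR, 15.89 ± 0.51 in MCR and 15.91 ± 0.27 in ICR. The part of adipocyte content in the enzymes' rise was not tested.

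Abca1, the exporter that loads lipid-poor apolipoprotein, had values of 14032, 15361, 14667, 11802 and 16452 in Obese and 19155, 12456, 14320.2, 11772 and 12538 in LFCR. The groups overlapped almost fully (-0.06 ± 0.13, interval -0.33 to 0.22, adjusted p = 0.806), with LFCR 1 the highest of all libraries. Scaled by total reads, the difference was -0.33 (adjusted p = 0.0334). Mylip, a ubiquitin ligase gene, differed by -0.29 in LFCR and -0.28 in MCR (adjusted p = 0.0515 and 0.098). Nr1h3 had means of 1555 ± 311 in Obese, 2034 ± 232 in LFCR and 2075 ± 347 in ICR (SD, n = 5 each), differences of 0.40 ± 0.15 and 0.41 ± 0.15 (adjusted p = 0.0654 and 0.0902). Without the 8 libraries both passed (0.52, adjusted p = 0.0269, and 0.61, adjusted p = 0.0112). The Nr1h2 difference in LFCR did not pass (interval -0.14 to 0.14). Stard4, a sterol carrier of the cytosol, was lower in LFCR, from 839 ± 77.2 to 616 ± 62.0 (-0.43 ± 0.14, adjusted p = 0.0326).

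**Figure D4:**
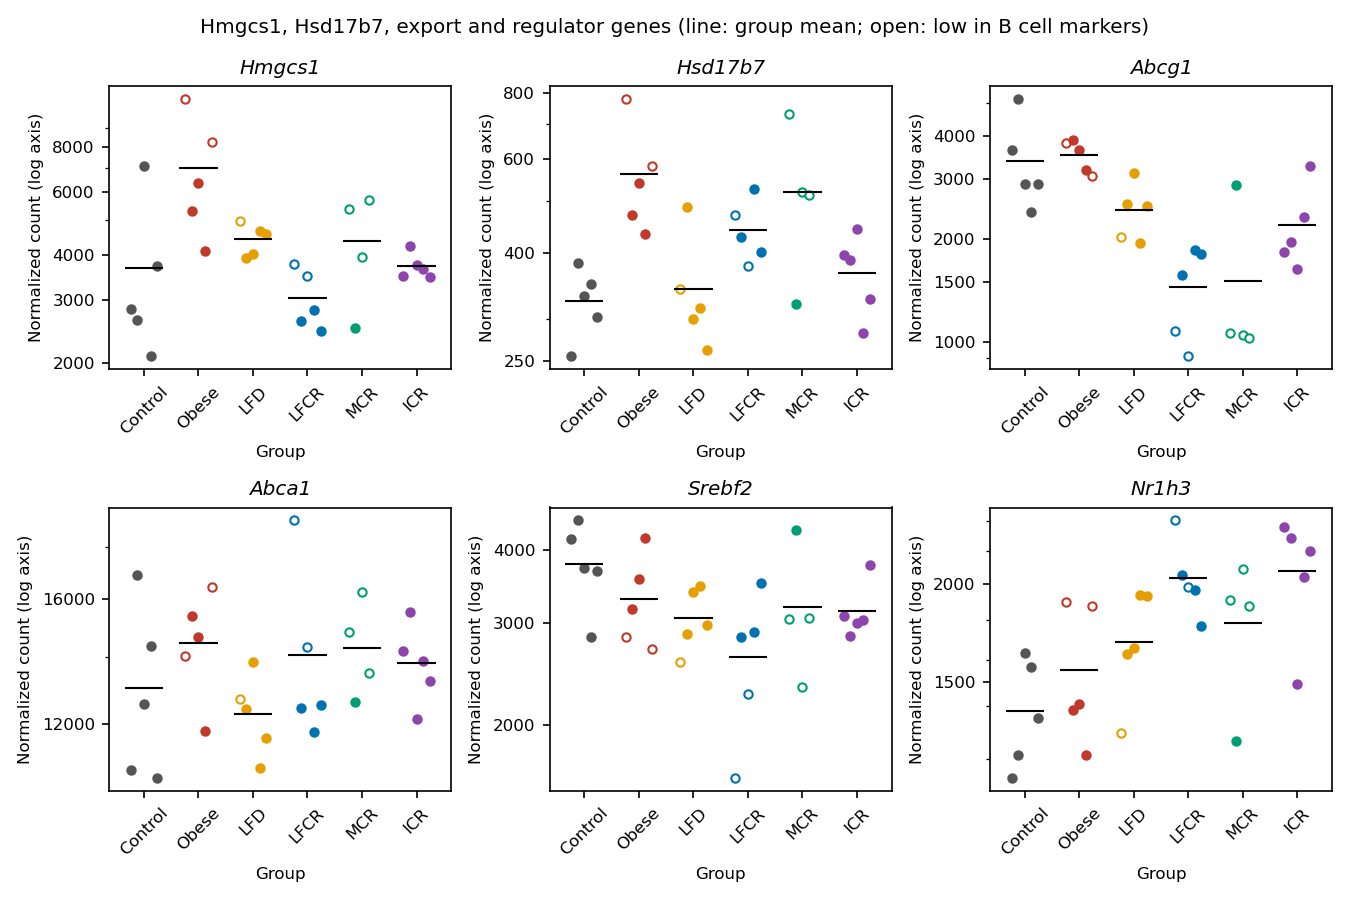
Normalized counts (log axes) by library and group for Hmgcs1, Hsd17b7, the exporters Abcg1 and Abca1, Srebf2 and Nr1h3, with open circles for the 8 libraries low in B cell markers and lines for group means. Abcg1 is lower in every LFCR and MCR library than in any Obese library, whereas Abca1 overlaps across all groups.

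Restriction was next set against the unrestricted low-fat diet, averaging the group means of the restricted diets (LFCR, MCR, ICR). Positive differences were found for 18 of the 19 enzymes and for 8927 of all 19387 genes. Here 4 of the 29 genes were higher and 0 lower (1.68% and 1.65% of all genes, 3.33% in all), with a median difference of 0.34 beside -0.02. The genes were Fdft1 (0.84 ± 0.20, adjusted p = 0.0217), Aacs (1.43 ± 0.37, adjusted p = 0.0348), Msmo1 (0.53 ± 0.14, adjusted p = 0.033) and Pmvk (0.88 ± 0.25, adjusted p = 0.0494). Fdft1 had values of 1441, 1489, 862, 1365 and 1410.3 in LFD, and only MCR 2 of the 14 restricted libraries lay within that range. Insig1 came close (1.20 ± 0.36, adjusted p = 0.0627), and Hmgcs1 differed by -0.29 (interval -0.74 to 0.15). No sterol gene passed with lane as a term, with luminal markers as a covariate, without the 8 libraries, or without LFD 1 or LFD 3, while 11 passed without MCR 2. Calls over all genes fell too, from 645 to 284 with lane, 3 with the luminal covariate and 4 without the 8 libraries. The count was 1 without LFD 4, MCR 1 or MCR 3, and 2 without LFCR 2, with no filter or in a fit of only these groups. Pmvk also ended on the log2(normalized count + 1) scale (adjusted p = 0.0524), with voom (0.066), and without any of ICR 1 to 4 or LFCR 1 to 4. Msmo1 ended in a fit of only these groups, scaled by total reads, and without LFD 1, 3, 4 or 5 or MCR 1 or 3. Calls over all genes were not counted for the fits leaving out 1 library. Of 8 luminal epithelium markers, 7 were higher in LFD than in Obese, against 2.70% of all genes. Under restriction 3 were lower than in LFD, against 1.65% of all genes. The luminal marker means were 11.51 ± 0.62 in LFD and 10.49 ± 0.33 in LFCR.

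**Figure D5:**
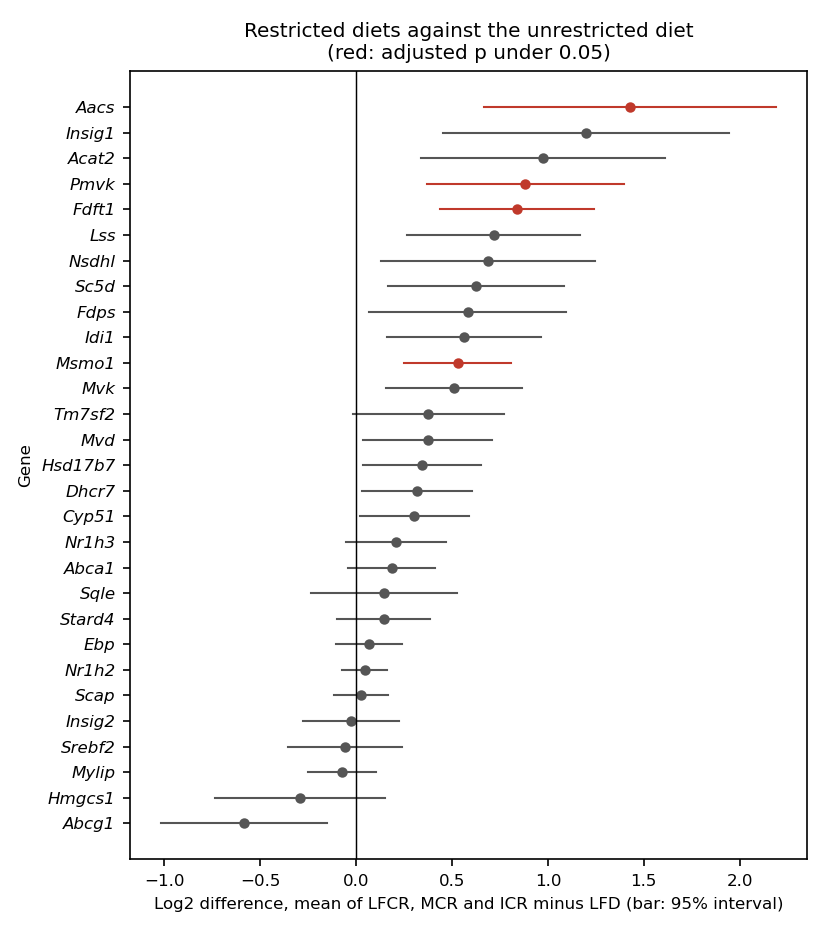
Log2 difference of each sterol gene, mean of the 3 restricted diets minus LFD, with 95% intervals from the limma fit. The 4 red genes have adjusted p under 0.05. Points for 24 of the 29 genes lie right of 0, with Aacs at 1.43 and Abcg1 at -0.58 as the extremes.

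Lean controls gave a second reference. In LFD against Control, 0 of 29 sterol genes passed, as did 0% of all genes (limma, and also voom), and 2 sterol genes and 2425 of all genes had unadjusted p under 0.05. Under restriction 13 sterol genes were higher and 2 lower than in Control, against 19.9% and 20.5% of all genes (40.4% in all), with a median of 0.36 beside -0.02. All 19 enzymes had positive differences, as had 9263 of the 19387 genes. Fdft1 (1.31 ± 0.20, adjusted p = 0.000227), Msmo1 (0.60 ± 0.14, adjusted p = 0.00274), Sc5d (0.95 ± 0.22, adjusted p = 0.00359), Nr1h3 (0.49 ± 0.13, adjusted p = 0.00555), Mvk (0.67 ± 0.17, adjusted p = 0.00585), Insig1 (1.40 ± 0.36, adjusted p = 0.00601) and Aacs (1.41 ± 0.37, adjusted p = 0.00665) were higher. Abcg1 (-1.03 ± 0.21, adjusted p = 0.00145) and Srebf2 (-0.36 ± 0.14, adjusted p = 0.0494) were lower, and the Srebf2 call ended with no filter, on the log2(normalized count + 1) scale, with luminal markers, when the other groups were left out, and on removing any of Control 1, 2, 3 or 5, LFCR 1 or 3, MCR 1, 3 or 4, or ICR 1 to 4 (adjusted p from 0.0503 to 0.158). Adipocyte marker means were 14.84 ± 0.68 in Control and 16.18, 15.89 and 15.91 in LFCR, MCR and ICR. The part of adipocyte content in these differences was not tested. All 5 Control libraries and 9 of the 14 restricted libraries had B cell signal. Without the 8 libraries 1 gene passed, Fdft1 (1.07, adjusted p = 0.0172), the count was 8 without Control 1 or Control 2, and scaling by total reads gave 10 higher and 5 lower.

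The 3 restricted diets were compared by an F-test per gene. None of the 29 sterol genes passed, as for 0% of all genes (limma, and also voom), although 13 sterol genes and 2506 of 19387 genes had unadjusted p under 0.05. Fdps had the smallest p (0.000584, adjusted p = 0.136), followed by Pmvk (0.00166, adjusted p = 0.174) and Nsdhl (0.00176, adjusted p = 0.177). Fdps values were 1164, 1946, 1229, 1693 and 1108 in LFCR, 1951, 845, 1503 and 1108 in MCR and 640.0, 483, 1060.5, 359 and 515 in ICR. All LFCR libraries lay above all ICR libraries for this gene, and MCR 2 was below ICR 3. Without MCR 2, 7 sterol genes passed the F-test. Calls over all genes were not counted for that fit, so the 7 cannot be read as particular to sterol genes.

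A second list of 45 pathway genes outside the 29 was read beside them, of which 43 passed the filter and Abcg5 and Abcg8 did not. In LFCR 8 rose and 7 fell, in MCR 6 and 6, in ICR 2 and 4, and in LFD 0 and 4, and 8 rose and 0 fell in Obese against Control. The shares of all genes higher and lower were 11.9% and 9.42% in LFCR, 6.66% and 5.69% in MCR, 3.99% and 5.23% in ICR, 2.70% and 3.28% in LFD, and 9.44% and 3.44% in Obese against Control. Srebf1, the gene of SREBP1, had 13689.5 ± 3430.0 normalized counts in LFCR and 4211 ± 672 in Obese (SD, n = 5 each; 1.67 ± 0.30, adjusted p = 0.000319), and rose in MCR and ICR by 1.23 and 1.07. Por, the reductase that passes electrons to Cyp51 and Sqle, went from 5409 ± 1052 to 16574 ± 3433 in LFCR (1.61 ± 0.23, adjusted p = 3.56e-05), and Pdss2, of the ubiquinone branch, by 0.75 (adjusted p = 0.000271). Against Control, Por (1.25, adjusted p = 0.000268) and the mitochondrial thiolase gene Acat1 (0.97, adjusted p = 0.000397) were higher under restriction. Scaled by total reads, the LFCR calls on this list were 6 higher and 19 lower. Calls over all genes then went from 4142 to 6504 of 19387.

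Pltp, Lipa, Smpdl3a and Nus1 were higher in Obese than in Control and lower than Obese in LFD and ICR. Pltp, the phospholipid transfer protein and an LXR target, rose from 4421 ± 1024 in Control to 14297 ± 6165 in Obese (1.60 ± 0.25, adjusted p = 0.000267). It fell in LFD (-1.06), LFCR (-1.64), MCR (-1.42) and ICR (-1.46), with adjusted p from 5.40e-05 to 0.013. The LFD calls of Pltp, Lipa, Smpdl3a and Nus1 ended with luminal markers as a covariate, without the 8 libraries and when other groups were left out of the fit, which also ended the MCR call of Pltp (adjusted p = 0.0614). Lipa, the lysosomal acid lipase, rose with obesity (0.73, adjusted p = 0.00234) and fell on all 4 diets, by 0.65 in ICR to 0.92 in MCR, as did Smpdl3a, an LXR-responsive phosphodiesterase (0.81 with obesity, -0.69 in LFCR). The Lipa difference with obesity was, without the 8 libraries, 0.53 (adjusted p = 0.0516) and that in MCR, by then the single library MCR 2, -0.91 (adjusted p = 0.0747). Nceh1, a cholesteryl ester hydrolase of macrophages, fell in LFCR (-1.33 ± 0.26, adjusted p = 0.00058) and MCR (-1.24, adjusted p = 0.00434, and 0.0629 when other groups were left out), and Soat1, which makes cholesteryl esters, by 0.94 and 0.86. The macrophage marker values given with Abcg1 apply to these genes too, and their part was not tested. Cyb5r3 (0.83), Vldlr (0.95), Nus1 (0.55), Lrp1 (0.74) and Tmem97 (0.38) made up the other rises with obesity, and the Nus1 rise did not pass without the 8 libraries (adjusted p = 0.0612) or in a fit of only these groups (0.0682).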

How the data were processed

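RNA-seq of 29 mammary fat libraries in 6 groups was read from 1 table of the whole series. Per the labels' protocols, a TruSeq stranded kit for total RNA and paired reads of 76 bases were used. The submitters' processing notes name mm10 and the tools TopHat2 (2.0.7), HTSeq (0.5.3p9) and DESeq2, and do not state here the annotation or how reads were counted. The deposited table holds log2 values that the authors computed, with a shared lowest value of 3.75. Inverting a variance-stabilising transform, taking that value as 0 reads, gave whole reads for 100% of values within a tolerance of 0.01. That the table holds such a transform is inferred from the values. The transform compresses low values, so differences of low genes are understated. No pair of libraries within a group agreed within sampling noise.

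Group means were estimated in 1 limma model of all libraries (limma 3.58.1, statmod 1.5.0, R 4.3.3; trended, robust moderation) for 19387 genes with a normalized count of 10 or more in at least 4 libraries. P-values were adjusted by Benjamini-Hochberg over those genes, with a threshold of 0.05, and every adjusted p printed comes from this fit or a named alternative. The script was tested on simulated data. By rule every sterol gene is named, with full statistics for up to 8 per comparison with the smallest adjusted p, values by library for the 10 called in the most comparisons and for Srebf2, Insig1, Abca1 and Nr1h3, and up to 4 genes of the second list per comparison. 1 result on the second list is not reported here. Fdps by library, and Srebf1, Cyb5r3, Vldlr, Lrp1 and Tmem97, were chosen after their values were seen. The sterol genes, lists and tests were chosen with earlier results of these data known. Alternatives were no filter, log2(normalized count + 1), limma voom on recovered reads, lane as a term, luminal markers as a covariate, only the groups compared, leaving out the 8 libraries, leaving out each library, and, chosen after seeing the data, scaling by total reads. All columns of the table were matched to a library. Gene positions are from GENCODE M21 (GRCm38, the coordinates of mm10), and promoter windows from RefSeq on GRCm38.p6.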

Additional observations from a re-analysis of the deposited data

Results flagged for a closer look

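Within groups of 4 or 5, single libraries stood apart by Dixon's criterion in 8 of 174 sets of values (29 genes in 6 groups), where chance flags about 1 in 20, or 8.7. ICR 3 was high for 4 synthesis enzymes: Pmvk at 1162 normalized counts (the others 586 to 747), Idi1 at 2065 (895 to 1026), Cyp51 at 1229 (719.8 to 773) and Dhcr7 at 642 (427 to 468). MCR 2 was high for Abcg1 at 2890 (the others 1027 to 1064) and low for Insig2 at 1467 (1913 to 1972). LFD 3 was low for Fdft1 at 862 (1365 to 1489), and ICR 5 was high for Srebf2 at 3771 (2851 to 3078).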

How the results depend on the processing

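Counts of sterol genes called kept within 1.5 times in LFCR against Obese under every alternative (14, and 12 to 17 leaving out 1 library), and no named gene changed sign when called. Without the 8 libraries low in B cell markers the counts were 0 in Obese against Control (from 3), 0 in LFD (from 1), 0 in MCR (from 10), 0 in restriction against LFD (from 4) and 1 in restriction against Control (from 15). Calls over all genes there went from 2496 to 628, 1159 to 171, 2395 to 101 (MCR 2 alone), 645 to 4 and 7835 to 1031. On the second list they were 2 (from 8), 0 (from 4), 1 in MCR (from 12), 11 in ICR (from 6) and 2 in restriction against Control (from 24). With luminal markers as a covariate, sterol counts were 1 in Obese against Control, 0 in LFD, 6 in MCR, 1 in ICR and 0 in restriction against LFD, and the second list gave 0 in LFD. Over all genes this covariate left 1522, 11, 1347, 1241 (from 1786) and 3. With lane as a term, ICR gave 1 and restriction against LFD 0, and with no filter 1 and 2. Fits of only the groups compared gave 0 sterol genes in LFD and 2 in restriction against LFD, and on the second list 4 in Obese against Control, 0 in LFD, 5 in MCR and 1 in restriction against LFD. Scaling by total reads, chosen after seeing the data, gave 25 of the second list in LFCR (from 15) and 2 in restriction against LFD (from 0). Over all genes these calls went from 4142 to 6504 and from 645 to 1535, and in restriction against Control from 7835 to 9664. Total-read scaling lowered the median of all genes by 0.25 in LFCR and 0.21 in restriction against Control. In the latter, the second list went from 16 higher and 8 lower to 7 and 14. Apart from the smaller groups that leaving out libraries makes, the cause was not tested.

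Leaving out 1 library gave 1 to 4 sterol genes in Obese against Control, 0 to 2 in LFD, 3 to 18 in MCR, 1 to 4 in ICR, 0 to 11 in restriction against LFD, 8 to 17 in restriction against Control and 0 to 7 among the restricted diets. On the second list it gave 5 to 13 in Obese against Control, 2 to 4 in LFD, 0 to 5 in restriction against LFD and 8 to 24 in restriction against Control. Calls over all genes were not counted for these fits. No paired analysis was possible because the titles give each library its own number and the replicate numbers here only follow accession order, so the lane, with at most 1 library per group, was the block fitted. The 5 libraries of lane 4 are the shallowest, which limits low genes most.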
